A study of Mus musculus with 2 samples.

Results

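The genes described here are 9 transcription factors that act in sequence as a neural progenitor becomes an excitatory neuron: the proneural basic helix-loop-helix (bHLH) factors Neurog1 and Neurog2, the neuronal bHLH factors Neurod1, Neurod2, Neurod4 and Nhlh1, the T-box factors Eomes (also called Tbr2) and Tbr1, and the zinc finger repressor Scrt2. They were chosen by name from the 32285 genes of the feature tables, and all 9 were found, each as 1 row. Of the 32285 genes, 24543 had a UMI in a kept cell. Their unique molecular identifiers (UMIs, 1 per captured transcript) were followed through cell classes of the dentate gyrus lineage that leads from radial glia to granule neurons. Cells came from mouse dentate gyrus at postnatal day 5 and were profiled with a 10x Genomics 3' single-cell assay. The Setdb1_cKO library came from conditional knockouts of Setdb1, whose product adds methyl groups to histone H3 at lysine 9, a mark of silent chromatin, and the control library came from wild-type animals. The Cre driver, the deleted exons and the number of animals behind each library were not given in the sources used here. With 1 library per genotype, every difference below is between these libraries. No test was made, and all intervals are 95% intervals that cover counting error only.

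In the forebrain, Neurog2 turns on in progenitors that commit to a glutamatergic neuron fate. It is followed by Eomes, the defining factor of intermediate progenitors, and then by the Neurod factors and Tbr1 as cells leave the cell cycle. In the dentate gyrus, Eomes is needed to produce intermediate progenitors and Neurod1 is needed for granule neurons to form and survive.

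The Setdb1_cKO library held 12060 barcodes with 87845965 UMIs, and the control library held 14397 barcodes with 82393428 UMIs. Of these, 9365 and 10747 cells were kept, with medians of 6977 and 5926 UMIs per cell. Setdb1 itself was at 20.3 CPM (counts per fixed total of UMIs in the same cells, not scaled by gene length) in Setdb1_cKO and 42.8 CPM in control over all kept cells, and at 18.3 and 42.8 CPM in intermediate progenitors, but at 31.5 and 26.3 CPM in vascular, fibroblast and microglial cells. UMIs at the 3' end need not come from the deleted exons. Xist gave 94030 UMIs in kept Setdb1_cKO cells and 16 in control cells, and the Y-linked gene Ddx3y gave 0 and 4143. The libraries therefore differed in sex as well as in genotype, and genotype and sex cannot be told apart. Prox1, which defines granule cells of the dentate gyrus, was at 1268 CPM in Setdb1_cKO and 1409 CPM in control in neuroblasts.

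The lineage was followed in 8 clusters named by stage and leading gene. They were radial glia (1119 Setdb1_cKO and 1274 control cells), Pclaf intermediate progenitors (527 and 853), Tac2 intermediate progenitors (589 and 849), Calb2 neuroblasts (957 and 886), Cpne9 neuroblasts (896 and 1169), Bcl11b neuroblasts (1385 and 1295), granule neurons (434 and 85) and an unnamed cluster led by Gpd1 (321 and 453), whose highest marker scores were those of radial glia and intermediate progenitors. The radial glia cluster scored nearly the same for astrocytes (1.23) as for radial glia (1.24), and 1 radial glia marker, Hopx, was among its 10 leading genes. Cajal-Retzius cells (391 and 425) and unnamed neurons led by Syt4 (543 and 250) were read beside them. Cluster names come from marker genes and stand for cells like the named type. The members took no part in clustering or naming. Free RNA in droplets also gives UMIs, so each level was set beside that in endothelial, mural, fibroblast and microglial cells of the same library (505 and 731 cells), which should lack these factors. In those cells Eomes was at 2.97 CPM in Setdb1_cKO and 10.3 CPM in control, Neurod1 at 30.5 and 55.0 CPM, and Neurod2 at 12.9 and 18.4 CPM. Levels at or under these values are background and are not read as expression.

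The 4 members that were furthest apart in intermediate progenitors lie on different chromosomes, with coordinates from GENCODE vM21 on GRCm38. Eomes (ENSMUSG00000032446) spans chr9:118478212-118486132 on the plus strand, Neurog2 (ENSMUSG00000027967) chr3:127633135-127635631 on the plus strand, Neurog1 (ENSMUSG00000048904) chr13:56250478-56252163 on the minus strand, and Nhlh1 (ENSMUSG00000051251) chr1:172052292-172057573 on the minus strand. All 9 genes are protein coding. Eomes overlaps an antisense gene at its end, Neurod1 lies inside the span of Cerkl on the same strand and overlaps a long noncoding RNA on the other, and the other 7 overlap no annotated gene. Reads that fit both Neurod1 and Cerkl cannot be placed with certainty.

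The 250 bases before the start of these 4 genes are shown because their levels differed in different directions, and because bHLH factors bind E-boxes (CANNTG). They are RefSeq sequence on GRCm38.p6, 5' to 3' on the strand of the gene. Capitals mark 3 motifs: the E-box on either strand, CCAAT on either strand, and the TATA-like run that is spelled out after the sequences. The windows are chr9:118477939-118478188 for Eomes, chr3:127632886-127633135 for Neurog2, chr13:56252181-56252430 for Neurog1 and chr1:172057597-172057846 for Nhlh1.
Eomes: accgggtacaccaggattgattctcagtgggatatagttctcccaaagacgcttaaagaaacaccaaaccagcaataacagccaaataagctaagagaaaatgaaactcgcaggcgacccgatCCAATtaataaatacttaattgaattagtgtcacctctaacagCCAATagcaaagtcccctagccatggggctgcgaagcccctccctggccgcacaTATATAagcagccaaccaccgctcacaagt
Neurog2: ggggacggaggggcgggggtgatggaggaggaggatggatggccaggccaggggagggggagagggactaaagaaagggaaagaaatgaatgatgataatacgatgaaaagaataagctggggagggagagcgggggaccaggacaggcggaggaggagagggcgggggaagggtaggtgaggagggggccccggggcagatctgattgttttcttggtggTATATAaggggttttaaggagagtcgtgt
Neurog1: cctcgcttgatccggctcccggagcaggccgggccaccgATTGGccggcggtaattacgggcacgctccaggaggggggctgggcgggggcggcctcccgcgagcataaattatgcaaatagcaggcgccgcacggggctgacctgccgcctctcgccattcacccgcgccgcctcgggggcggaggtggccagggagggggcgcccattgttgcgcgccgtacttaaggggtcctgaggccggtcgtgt
Nhlh1: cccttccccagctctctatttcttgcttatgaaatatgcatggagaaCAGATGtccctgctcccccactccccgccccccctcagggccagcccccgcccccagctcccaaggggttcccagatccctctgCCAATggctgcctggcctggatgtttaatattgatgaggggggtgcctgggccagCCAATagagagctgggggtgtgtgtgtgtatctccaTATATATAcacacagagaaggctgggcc

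No CANNTG was found in the windows of Eomes, Neurog2 and Neurog1, whereas that of Nhlh1 held 1, which read CAGATG. Nhlh1 was not the only member with an E-box. Of the other members with a promoter sequence, Neurod1 and Tbr1 had 1 CANNTG each and Neurod4 had 0. Neurod2 had 3, of which 1 read CAGATG or CATCTG, and its log2 ratio in neuroblasts was -0.3. A link between these matches and the levels was not tested. Of 27025 promoters of this length, 66.0% held CANNTG and 14.5% held CAGATG or its reverse complement CATCTG. The run TATATA stood in the windows of Eomes, Neurog2 and Nhlh1, in Nhlh1 as 2 overlapping matches, and in 5.56% of all promoters. CCAAT, searched on both strands, occurred 2 times before Eomes, 2 times before Nhlh1 and 1 time before Neurog1, against 34.5% of all promoters with at least 1. The T-box site GGTGTGA, or TCACACC on the other strand, was in no window of the 8 members with a promoter sequence, and in 3.31% of all promoters. The Neurog1 window was 71.2% G or C, that of Neurog2 58.0%, that of Nhlh1 58.4% and that of Eomes 46.4%, and the median promoter had 52.0%. These matches describe letters and not binding.

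The members peaked at 4 places along the lineage. Neurog2 was present from radial glia on and peaked in Pclaf intermediate progenitors, as did Eomes and Neurod4. Nhlh1 and Scrt2 peaked in Tac2 intermediate progenitors, Neurod1 in Calb2 neuroblasts and Neurod2 in Bcl11b neuroblasts. Tbr1 was highest in Cajal-Retzius cells and, within the lineage, in Tac2 intermediate progenitors. For the 8 members other than Neurog1, the cluster with the highest level was the same in Setdb1_cKO and control. Neurod1 in control was nearly tied, at 1644 CPM in Calb2 and 1642 CPM in Cpne9 neuroblasts.

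**Figure D1:**
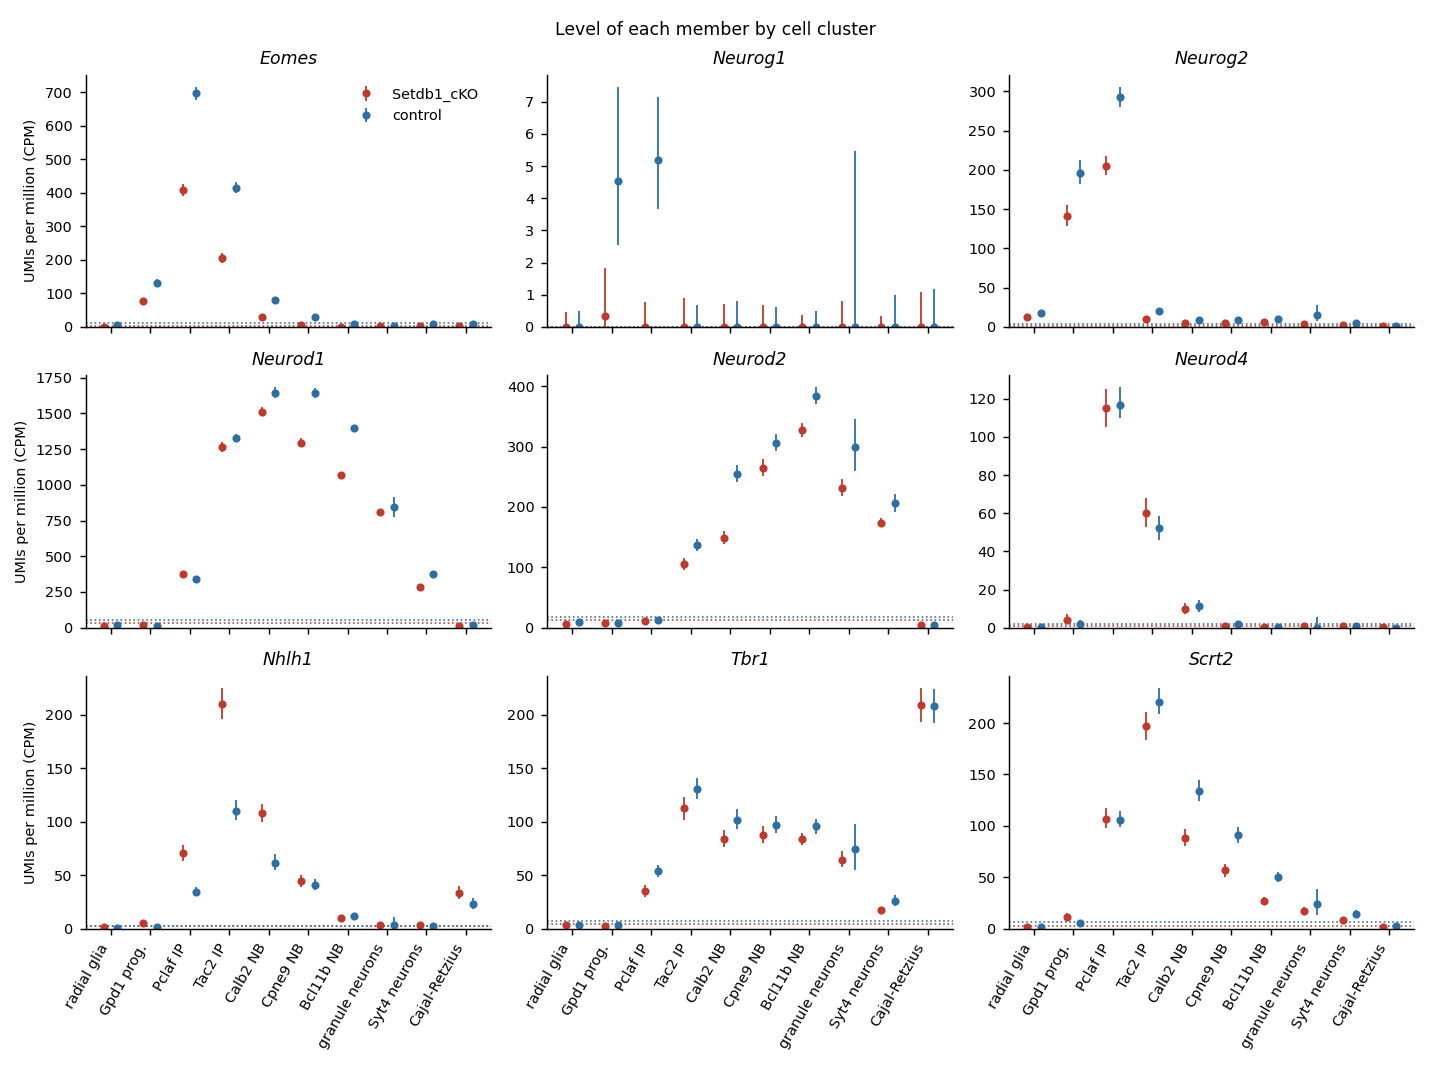
Level of each member in CPM (y axis, own scale per gene) in 10 clusters (x axis; IP, intermediate progenitors; NB, neuroblasts), with Setdb1_cKO in red and control in blue, 95% Poisson intervals as bars and the level in vascular, fibroblast and microglial cells as dotted lines. Eomes in Pclaf intermediate progenitors was at 408 CPM in Setdb1_cKO and 697 CPM in control, while Nhlh1 in Tac2 intermediate progenitors was at 210 and 110 CPM.

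In intermediate progenitors all 9 members were measured, meaning at least 30 UMIs over both libraries, and 4 were at least 1.5-fold apart. Eomes, Neurog1 and Neurog2 were lower in Setdb1_cKO and Nhlh1 was higher. Among all 12222 measured genes 13.6% were that far apart, 5.45% higher and 8.17% lower. The members' median log2 ratio of Setdb1_cKO to control was -0.18 without Neurog1 and -0.29 with Neurog1 at its bound, and the median of all measured genes was -0.04. In neuroblasts 3 of 8 measured members, Eomes, Neurog2 and Scrt2, were at least 1.5-fold lower, against 13.1% of 13279 genes apart and 5.93% lower, and their median was -0.31. In radial glia 3 of 5 measured members, Eomes, Neurod1 and Neurod2, were at least 1.5-fold lower, against 14.8% of 12392 genes apart and 8.51% lower, but all 3 lay under the free RNA level of their own library.

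Eomes had the lowest ratio over all kept cells among members with more than 100 UMIs in each library, 0.368 (0.353 to 0.383). It is the T-box factor of intermediate progenitors, and 58.3% of its UMIs in Setdb1_cKO and 57.9% in control came from the Pclaf cluster. In intermediate progenitors 2783 UMIs in Setdb1_cKO gave 314 CPM and 7239 UMIs in control gave 575 CPM, a ratio of 0.546 (0.523 to 0.571). The Gpd1 cluster, at 76.1 and 131 CPM, had a ratio of 0.579 (0.492 to 0.680), close to the 0.584 (0.554 to 0.616) of Pclaf intermediate progenitors. Both were thus lower in Setdb1_cKO by a similar proportion before and at the peak.

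Past its peak the Eomes ratio was smaller at each following cluster up to Bcl11b neuroblasts. Bins of a stage score, read further below, gave no such steady fall. The fall also depended on how cells were classed. Over all neuroblasts the Eomes log2 ratio was -1.9, against -2.70 with stricter cell filters. It was -0.81 when cells were classed one by one by marker scores, a setting that gave -0.77 in intermediate progenitors. Tac2 intermediate progenitors had 205 CPM in Setdb1_cKO and 415 CPM in control, a ratio of 0.494 (0.456 to 0.535). Calb2 neuroblasts had 30.01 and 81.0 CPM, a ratio of 0.370 (0.305 to 0.448). Cpne9 neuroblasts had 4.03 and 30.6 CPM, a ratio of 0.132 (0.081 to 0.206), and the Setdb1_cKO value lay near the 2.97 CPM of free RNA. In Bcl11b neuroblasts, at 0.517 and 7.38 CPM, both libraries were under their free RNA levels. The pooled levels of 2.97 and 10.3 CPM also carry the mix of cells: endothelial cells held 7 of the 15 Eomes UMIs in Setdb1_cKO and 50 of the 73 in control, fibroblasts held 7 and 8, and microglia held 0 and 0. The part of free RNA in the late ratios was not tested.

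The lower Eomes level held in the share of cells and in the amount per cell. After each cell had been thinned to 2000 UMIs, 52.4% (48.0 to 56.7) of Pclaf intermediate progenitors in Setdb1_cKO and 71.6% (68.4 to 74.6) in control had an Eomes UMI, and cells with one held 1.65 and 1.97 Eomes UMIs on average. Such cells made up 29.4% (25.7 to 33.2) and 46.7% (43.3 to 50.1) of Tac2 intermediate progenitors, and in Calb2 neuroblasts 5.67% and 14.3%. In vascular, fibroblast and microglial cells 0.424% and 1.46% of cells had one, at median depths of 7393 and 6364 UMIs before thinning. Without a class, over all kept cells, Eomes was at 43.8 and 119 CPM, a value that also carries the number of intermediate progenitors, 1116 in Setdb1_cKO and 1702 in control.

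**Figure D2:**
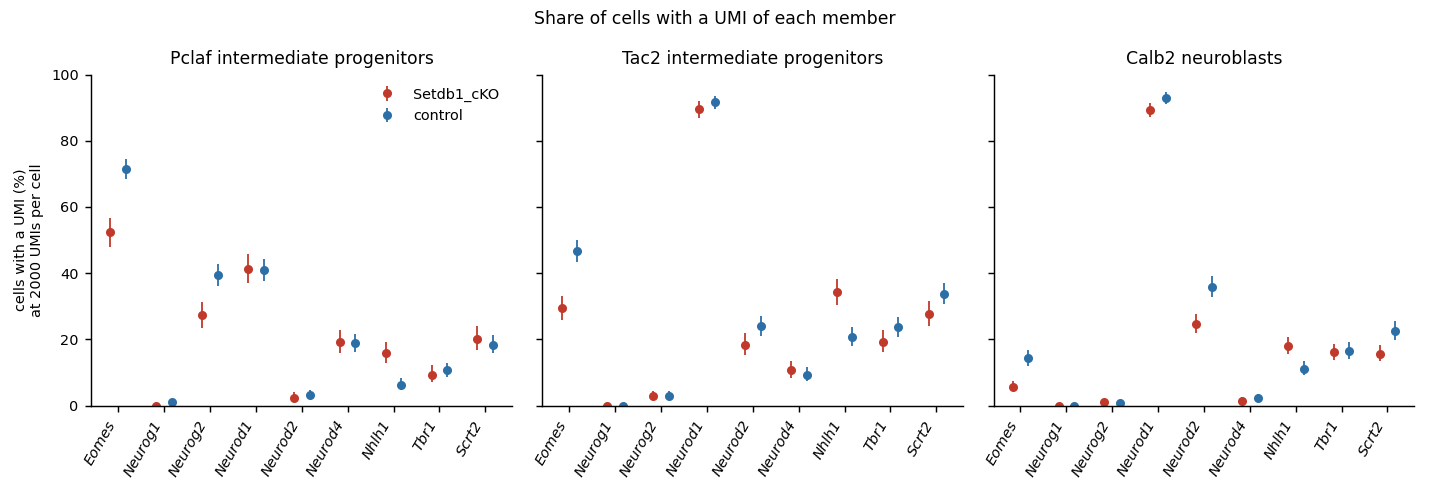
Percent of cells with at least 1 UMI of each member (y axis) after thinning to 2000 UMIs per cell in 3 clusters, with Setdb1_cKO in red, control in blue and exact 95% binomial intervals. Eomes and Neurog2 lie lower in Setdb1_cKO in Pclaf intermediate progenitors (52.4% and 71.6% for Eomes; 27.2% and 39.3% for Neurog2), and Nhlh1 lies higher (15.8% and 6.34%).

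Neurog2, the proneural factor that starts the cascade, was lower in Setdb1_cKO in every cluster of the progenitor stages, by a smaller margin than Eomes. Radial glia had 12.3 CPM in Setdb1_cKO and 18.2 CPM in control, a ratio of 0.678 (0.520 to 0.883), over the free RNA levels of 0.594 and 3.24 CPM. That value depended on which cells were called radial glia: its log2 ratio was -0.56, against 0.77 with stricter cell filters and -2.02 at a clustering resolution of 1.5. The Gpd1 cluster had 141 and 196 CPM, a ratio of 0.720 (0.636 to 0.814), and Pclaf intermediate progenitors had 205 and 293 CPM, a ratio of 0.701 (0.649 to 0.756). None of these 3 clusters alone reached 1.5-fold. Over both intermediate progenitor clusters the level was 116 and 175 CPM, a ratio of 0.661 (0.613 to 0.712). Its log2 ratio there of -0.60 was -0.35, under 1.5-fold, when cells were classed one by one by marker scores. Once past the peak, in Tac2 intermediate progenitors, it was at 10.6 and 20.4 CPM, and in neuroblasts at 5.95 and 9.23 CPM. The neuroblast log2 ratio of -0.63 was -0.16, under 1.5-fold, after free RNA was subtracted. The share of Pclaf intermediate progenitors with a Neurog2 UMI was 27.2% (23.5 to 31.3) in Setdb1_cKO and 39.3% (36.0 to 42.7) in control.

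Neurog1, a close relative of Neurog2 in sequence and function, was rare in both libraries. All kept cells held 2 Neurog1 UMIs in 2 Setdb1_cKO cells and 54 UMIs in 46 control cells, a ratio of 0.035 (0.004 to 0.133). In control 37 of these UMIs lay in Pclaf intermediate progenitors and 15 in the Gpd1 cluster. In Setdb1_cKO the Pclaf cluster had 0 and the Gpd1 cluster had 1. With 3 UMIs as the limit that a count of 0 allows, the Pclaf level was at least 8.26-fold lower in Setdb1_cKO, against 5.18 CPM in control. The exact interval of that ratio, which also counts the error of the control UMIs, reached up to 0.157. Under 8 of 10 other cell filters and clusterings, intermediate progenitors of Setdb1_cKO held 1 Neurog1 UMI and not 0. Vascular, fibroblast and microglial cells held 0 UMIs in both libraries. All deposited barcodes, without any filter, held 2 and 61 UMIs.

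Neurod4, a bHLH factor of the same stage as Eomes, differed by less than 1.5-fold in both intermediate progenitor clusters. It was at 89.6 CPM in Setdb1_cKO and 89.1 CPM in control in intermediate progenitors, a ratio of 1.01 (0.917 to 1.10). In the Pclaf cluster it was 0.977 (0.875 to 1.09) of control, and in the Tac2 cluster 1.16 (0.971 to 1.38). These intervals exclude a 1.5-fold difference in either direction. Neurod4 was also the gene with the pattern most like that of Eomes over 27 sums of 14 classes and both libraries (Pearson r = 0.889 of log2(CPM + 1) over 12410 genes compared), followed by Tac2 at 0.885. The sums share libraries and differ in depth, so these values only describe.

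**Figure D3:**
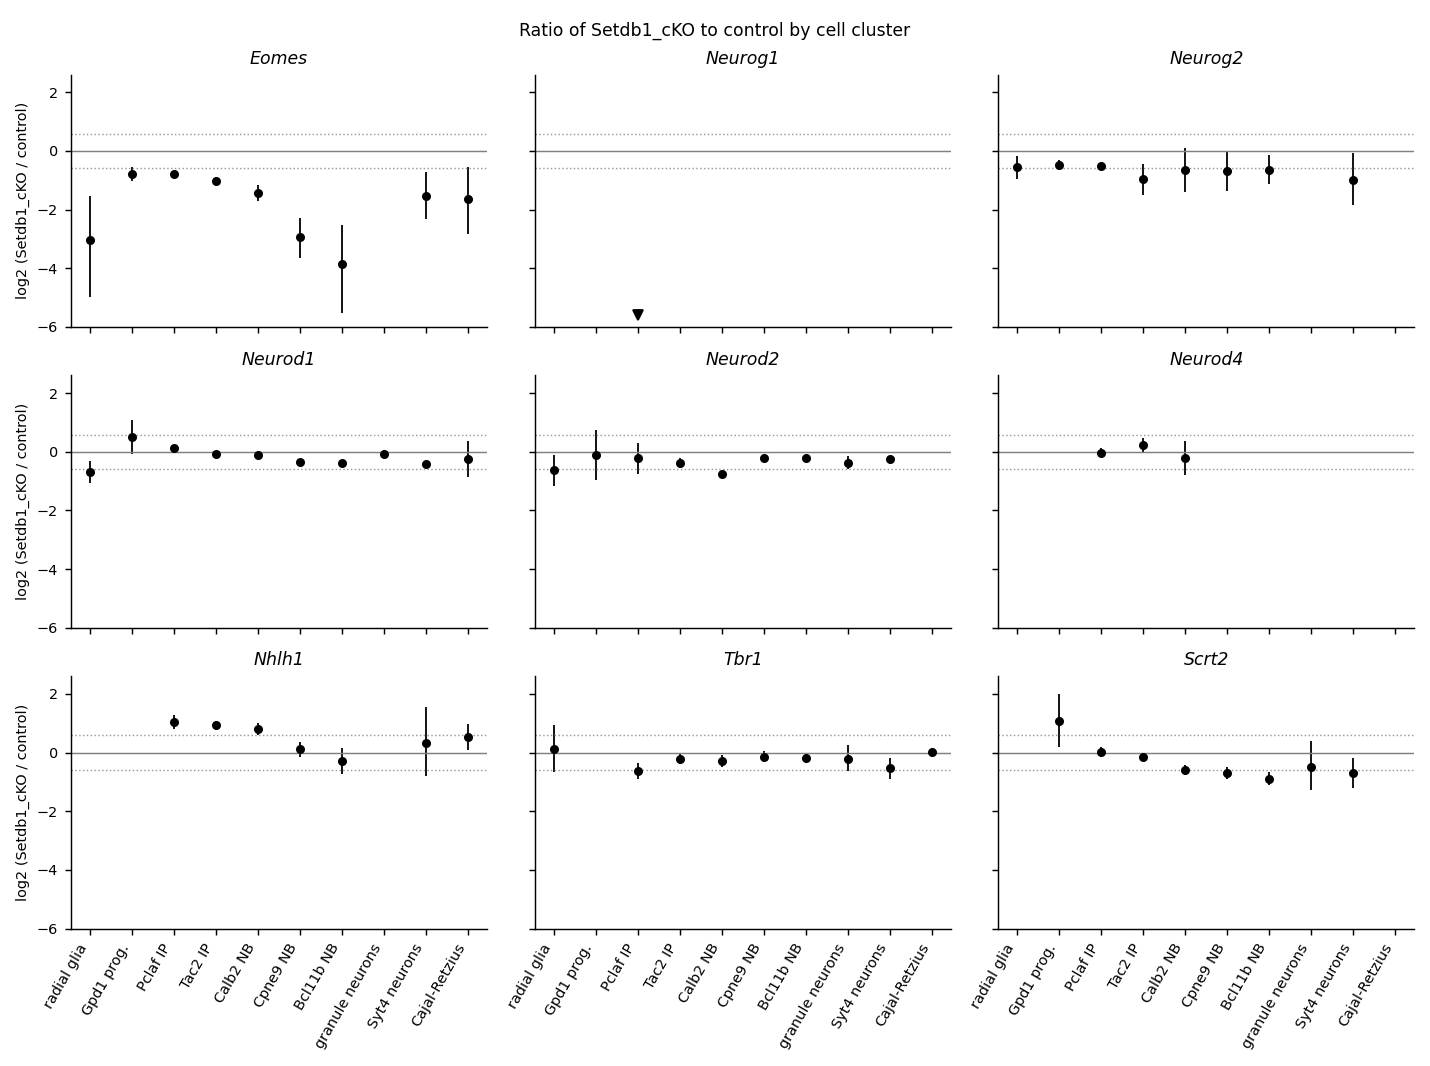
Log2 ratio of Setdb1_cKO to control (y axis) in 10 clusters (x axis) for members with at least 30 UMIs, with 95% counting intervals as bars, dotted lines at 1.5-fold and a triangle where Setdb1_cKO had 0 UMIs. Eomes lies below 0 from the Gpd1 cluster to Cpne9 neuroblasts, with ratios between 0.132 and 0.584, its other points come from levels at or under free RNA, and Nhlh1 has ratios of 2.04, 1.90 and 1.75 from Pclaf intermediate progenitors to Calb2 neuroblasts.

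Nhlh1, a bHLH factor of newly formed neurons, was the member that was higher in Setdb1_cKO. In intermediate progenitors 1192 UMIs in Setdb1_cKO gave 135 CPM and 847 UMIs in control gave 67.3 CPM, a ratio of 2.0002 (1.83 to 2.19). Pclaf intermediate progenitors had 70.3 and 34.5 CPM, a ratio of 2.04 (1.73 to 2.41), and Tac2 intermediate progenitors had 210 and 110 CPM, a ratio of 1.90 (1.71 to 2.12). Calb2 neuroblasts had 108 and 61.8 CPM, a ratio of 1.75 (1.51 to 2.03). In the later neuroblast clusters the intervals included 1, with ratios of 1.08 (0.901 to 1.30) in Cpne9 and 0.819 (0.606 to 1.11) in Bcl11b neuroblasts. Ordering the cells by a stage score gave a different pattern, with the largest ratio, 2.08, in the latest of 10 bins, which mixed clusters. Free RNA levels were low and alike at 1.98 and 2.11 CPM. The share of Tac2 intermediate progenitors with an Nhlh1 UMI was 34.3% (30.5 to 38.3) in Setdb1_cKO and 20.7% (18.0 to 23.6) in control. In Cajal-Retzius cells the levels were 33.3 and 23.1 CPM, a ratio of 1.44 (1.06 to 1.96).

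The genes most like Nhlh1 in pattern were Calb2 (r = 0.921) and its paralog Nhlh2 (r = 0.850). Nhlh2 was also higher in intermediate progenitors of Setdb1_cKO, at 134 CPM against 73.8 CPM, a ratio of 1.82 (1.67 to 1.98). Both Calb2 and Nhlh2 are among the marker genes used to name clusters.

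Neurod1, which granule neurons need to form, differed little in intermediate progenitors. Its level there was 784 CPM in Setdb1_cKO and 769 CPM in control, a ratio of 1.02 (0.988 to 1.05). The log2 ratio there of 0.03 ranged between -0.31 and 0.42 under alternatives, and its sign was kept in 11 of 16. Neurod1 was modestly lower in neuroblasts, at 1243 and 1538 CPM, a ratio of 0.808 (0.794 to 0.822), with ratios of 0.919 in Calb2, 0.788 in Cpne9 and 0.768 in Bcl11b neuroblasts. In granule neurons it was 807 and 843 CPM, a ratio of 0.957 (0.876 to 1.05). None of these reached 1.5-fold. The share of neuroblasts with a Neurod1 UMI was 87.5% (86.3 to 88.6) in Setdb1_cKO and 92.9% (91.9 to 93.7) in control, against 5.08% and 10.5% in vascular, fibroblast and microglial cells.

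Neurod2, a bHLH factor of maturing neurons, was lower in Setdb1_cKO by more than 1.5-fold only in Calb2 neuroblasts among the clusters of the lineage past the progenitors. Calb2 neuroblasts had 149 CPM in Setdb1_cKO and 255 CPM in control, a ratio of 0.585 (0.533 to 0.641), and 24.6% (21.9 to 27.5) and 35.9% (32.7 to 39.2) of these cells had a UMI. In Cpne9 and Bcl11b neuroblasts the ratios were 0.866 (0.808 to 0.929) and 0.853 (0.811 to 0.898), and in granule neurons, at 232 and 300 CPM, 0.772 (0.663 to 0.902).

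Scrt2, a repressor of the Snail superfamily expressed in newborn neurons, differed by less than 1.5-fold in intermediate progenitors and was lower in neuroblasts. It was at 149 CPM in Setdb1_cKO and 156 CPM in control in intermediate progenitors, a ratio of 0.952 (0.887 to 1.02). Along the stage score it was lower already in bin 4, at 0.601 (0.529 to 0.683). That bin mixed clusters: Tac2 intermediate progenitors, the most common, were 325 cells among 560 Setdb1_cKO and 663 control cells. In the Tac2 cluster itself Scrt2 was at 197 and 221 CPM. Neuroblasts had 50.7 and 84.6 CPM, a ratio of 0.599 (0.553 to 0.648). By cluster this was 0.660 (0.584 to 0.746) in Calb2, 0.623 (0.540 to 0.718) in Cpne9 and 0.540 (0.459 to 0.633) in Bcl11b neuroblasts. The neuroblast log2 ratio of -0.74 was -0.47, under 1.5-fold, with cell cycle genes in clustering. In the Gpd1 cluster Scrt2 was higher, on 33 and 17 UMIs, at 10.8 and 5.13 CPM, a ratio of 2.10 (1.14 to 4.02), and the control value lay under its free RNA level of 6.76 CPM.

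Tbr1, a T-box factor of early glutamatergic neurons, was equal in Cajal-Retzius cells, at 209 CPM in Setdb1_cKO and 208 CPM in control, a ratio of 1.003 (0.901 to 1.12). It was lower in Pclaf intermediate progenitors, at 34.7 and 53.5 CPM, a ratio of 0.649 (0.538 to 0.781). It lay nearer 1 in Tac2 intermediate progenitors (0.861, 0.764 to 0.969) and in neuroblasts (0.869, 0.812 to 0.929).

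The stage score, the mean of 6 neuron genes minus that of 6 progenitor genes per cell, gave an ordering across the named lineage classes that did not use their cluster borders. Cells of these classes of both libraries were placed together into 10 bins of the score. Bins could mix clusters. Tac2 intermediate progenitors were 325 cells of bin 4, which held 560 Setdb1_cKO and 663 control cells. Bcl11b neuroblasts were 456 cells of bin 9 (620 and 603 cells) and 574 of bin 10 (645 and 577 cells). Eomes was lower in Setdb1_cKO with an interval below 1 in bins 2 to 10, at 332 CPM and 609 CPM in bin 3, its highest, and at 146 and 360 CPM in bin 4. In bin 1 both libraries were under their free RNA levels. The Eomes ratio was 0.546 (0.511 to 0.583) in bin 3, 0.339 (0.294 to 0.390) in bin 5 and 0.463 (0.396 to 0.541) in bin 6. In bin 10, at 25.3 and 33.5 CPM, it was 0.756 (0.582 to 0.984). Along the score the ratio thus did not fall steadily, as it did by cluster. Neurog2 was lower with an interval below 1 in 7 bins, at 194 and 238 CPM in bin 3. Nhlh1 was higher with an interval above 1 in 6 bins and lower in 0. Its ratio was 1.33 (1.10 to 1.60) in bin 3, where Pclaf intermediate progenitors were the most common cells, and 1.26 (1.07 to 1.496) in bin 4, where Tac2 intermediate progenitors were. It was 1.61 (1.30 to 2.003) in bin 9 and 2.08 (1.61 to 2.73) in bin 10, where Bcl11b neuroblasts were the most common. Along the score the Nhlh1 ratio was thus largest in the latest bins, whereas by cluster it was largest in intermediate progenitors and under 1 in Bcl11b neuroblasts. Bin 10 held 229 Nhlh1 UMIs in Setdb1_cKO and 79 in control, and the whole Bcl11b cluster held 93 and 89. The late bins and the Bcl11b cluster were therefore not the same cells. Neurod4 was lower in Setdb1_cKO around its peak when cells were ordered this way, at 78.6 and 98.5 CPM in bin 3, a ratio of 0.798 (0.691 to 0.921), and at 50.4 and 63.2 CPM in bin 4, a ratio of 0.797 (0.659 to 0.963). In bin 2 its ratio was 0.425 (0.242 to 0.722), on 21 and 49 UMIs. The clusters gave no such difference for Neurod4. Neurod1 was lower in the 8 bins above its free RNA level, and in 3 of the 4 such bins when 5 bins were used. Neurod2 was lower with an interval below 1 in 6 bins and higher with an interval above 1 in 1. That was bin 4, at 188 and 168 CPM, a ratio of 1.12 (1.01 to 1.24). When 5 bins were used, its ratio in bin 2 was 1.33 (1.21 to 1.46). Scrt2 was lower with an interval below 1 in 8 bins. Its levels were 92.4 and 116 CPM in bin 3, a ratio of 0.794 (0.695 to 0.906). In bin 4 they were 96.4 and 160 CPM, a ratio of 0.601 (0.529 to 0.683). The intermediate progenitor class gave no such difference for Scrt2, but bin 4 also held cells of other classes. Sox9, Prox1 and Bcl11b are part of the score and themselves differed between the libraries in at least 1 class, and the part of that in the bins was not tested.

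**Figure D4:**
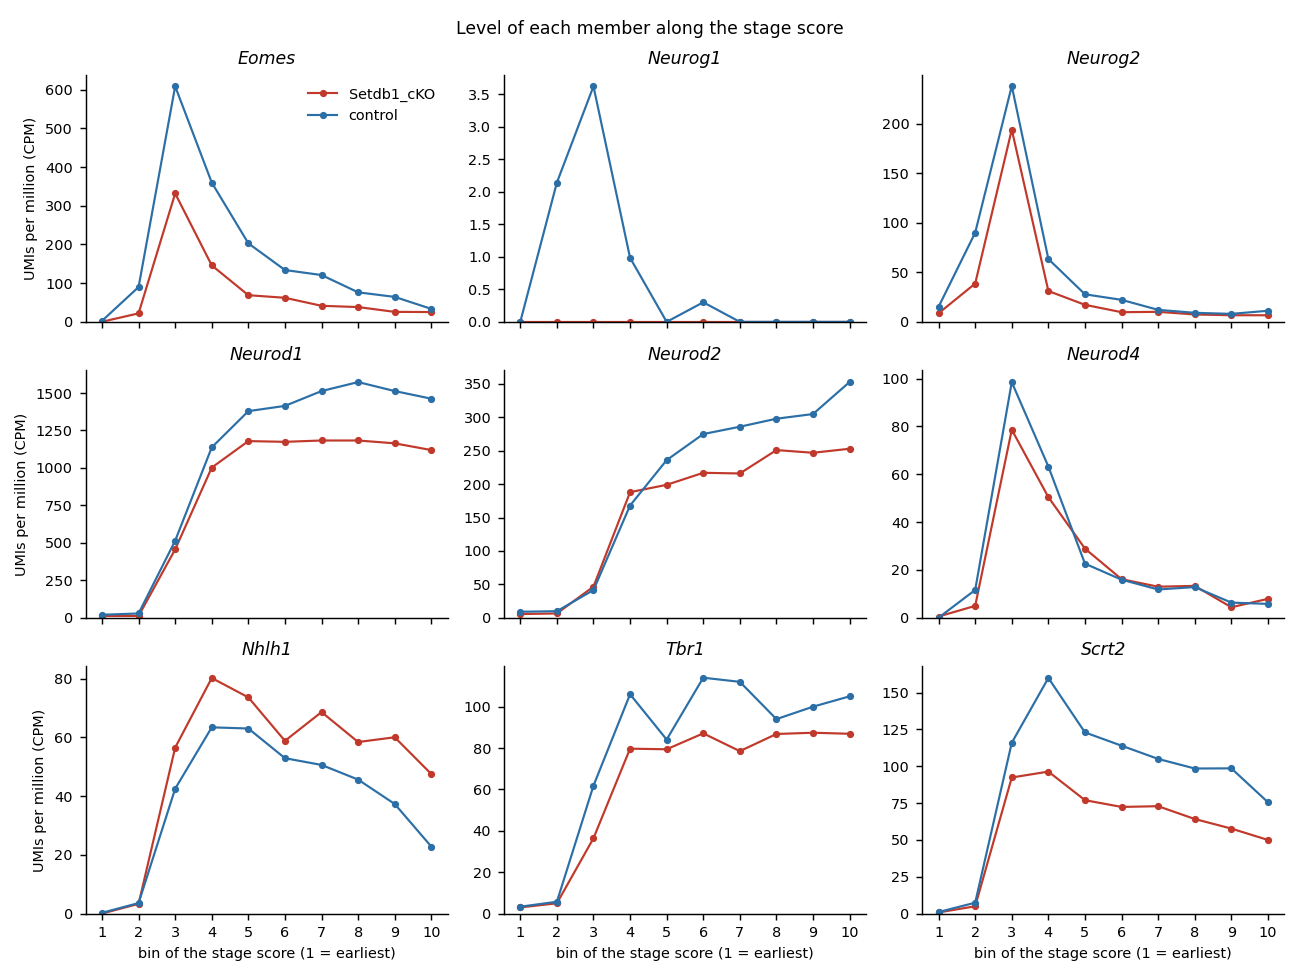
Level of each member in CPM (y axis, own scale per gene) in 10 bins of the stage score from earliest to latest (x axis), with Setdb1_cKO in red and control in blue, 1 library each and no error bars. Eomes peaks in bin 3 in both libraries, at 332 and 609 CPM, and from bin 2 on Setdb1_cKO stays under control.

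Intermediate progenitors that held a Top2a or Mki67 UMI, both transcribed in dividing cells, were 21.1% (18.7 to 23.6) of the class in Setdb1_cKO and 26.5% (24.4 to 28.7) in control after thinning. For most members the split was similar in both libraries. Neurog2 was 2.17-fold higher in dividing than in non-dividing cells in Setdb1_cKO and 2.05-fold in control. Eomes was 1.19-fold and 1.18-fold higher, whereas the dividing to non-dividing ratio was 0.359 and 0.360 for Neurod1 and 0.229 and 0.305 for Nhlh1. Tbr1 was an exception, with 0.352 (0.275 to 0.445) in Setdb1_cKO and 0.554 (0.479 to 0.639) in control. These contrasts also carry the mix of both clusters, since 43.1% of Pclaf but 1.37% of Tac2 intermediate progenitors in Setdb1_cKO, and 49.3% and 3.55% in control, were dividing. Within the Pclaf cluster alone the dividing to non-dividing ratio of Neurog2 was 0.879 in Setdb1_cKO and 0.878 in control, that of Eomes was 0.794 and 0.861, and that of Tbr1 was 0.629 (0.455 to 0.865) and 1.05 (0.855 to 1.30). The differences between libraries were seen on each side of the split. The Eomes ratio of Setdb1_cKO to control was 0.555 (0.515 to 0.598) in dividing and 0.549 (0.519 to 0.579) in non-dividing cells, and for Neurog2 it was 0.710 (0.638 to 0.790) and 0.671 (0.603 to 0.745). For Nhlh1 it was 1.47 (1.12 to 1.93) in dividing and 1.96 (1.78 to 2.16) in non-dividing cells. Tbr1 was at 30.8 CPM in Setdb1_cKO and 57.0 CPM in control in dividing cells, a ratio of 0.540 (0.415 to 0.696), and its ratio in non-dividing cells was 0.850 (0.762 to 0.948).

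**Figure D5:**
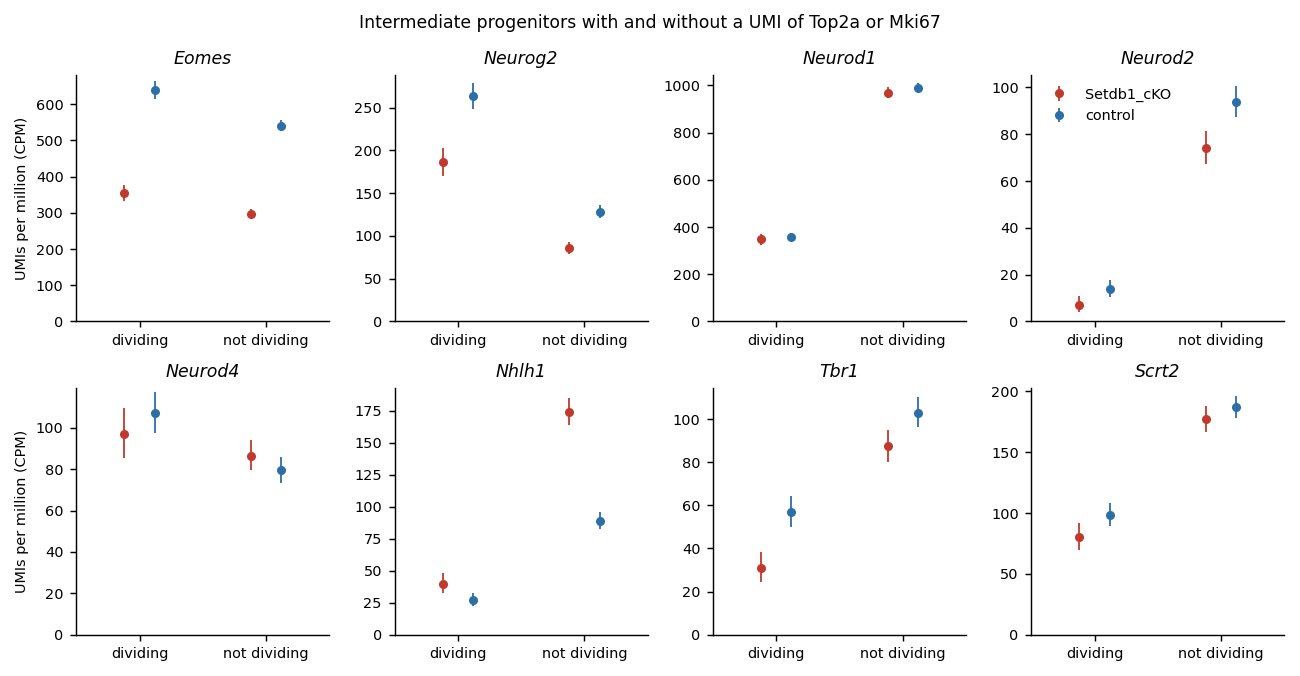
Level of 8 members in CPM (y axis, own scale per gene) in intermediate progenitors with (dividing) and without (not dividing) a UMI of Top2a or Mki67, with Setdb1_cKO in red, control in blue and 95% Poisson intervals. Eomes was at 354 CPM in Setdb1_cKO and 639 CPM in control in dividing cells and at 297 and 541 CPM in the others.

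Pairs of members were also read in single cells, which show what is present together and no order in time. Of intermediate progenitors with a Neurog2 UMI, 47.8% in Setdb1_cKO and 70.6% in control also had an Eomes UMI, compared with 39.0% and 56.1% of those without one. Fewer Neurog2 cells had a Neurod1 UMI, 34.6% and 37.2%, compared with 72.2% and 74.1% of cells without Neurog2. Among cells with a Neurod1 UMI, 29.6% in Setdb1_cKO and 17.9% in control had an Nhlh1 UMI, and among cells without one it was 17.3% and 4.89%. These contrasts follow the mix of clusters as well. Within Pclaf intermediate progenitors alone, an Eomes UMI was found in 50.3% of Setdb1_cKO and 70.7% of control cells with Neurog2, and in 53.1% and 72.1% of those without. All shares are of cells thinned to 2000 UMIs, so a missing UMI does not show a missing transcript.

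Genes that work with these factors were read as lists. Of 20 downstream or co-acting genes of proneural factors, 19 were measured in intermediate progenitors, 4 were higher and 1 lower by 1.5-fold, and their median log2 ratio was 0.01. Among all genes measured there, 5.45% were higher and 8.17% lower. Ebf1, an early neuronal factor, was at 69.4 CPM in Setdb1_cKO and 35.0 CPM in control, a ratio of 1.98 (1.75 to 2.25), and Dll3, a Notch ligand homologue, had a ratio of 1.504 (1.31 to 1.73). Gadd45g, a growth arrest gene, was lower at 197 and 437 CPM, a ratio of 0.450 (0.426 to 0.475), and in neuroblasts at 131 and 390 CPM. In neuroblasts 18 genes of the list were measured, with 1 higher and 3 lower and a median of -0.31, and Sox4 was at 1626 and 2537 CPM. Among all genes measured in neuroblasts, 7.18% were higher and 5.93% lower. In radial glia 15 genes of the list were measured with 0 higher and 3 lower, against 6.33% and 8.51% of all measured genes. Of the lower ones Rcor2 was at only 1.85 CPM in Setdb1_cKO and 5.85 CPM in control. Genes of the lists were not set beside their free RNA levels. Insm1, Gadd45g, Btg2, Rcor2, Sox11, Ebf3 and Nhlh2 of this list are also cluster markers.

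The 3 E proteins, which pair with proneural bHLH factors to bind DNA, were measured in all 3 classes and 0 were 1.5-fold apart in any. Among 16 progenitor regulators, Emx2, a homeobox factor of hippocampal progenitors, was lower in Setdb1_cKO in all 3 classes: at 115 and 185 CPM in radial glia, 96.3 and 176 CPM in intermediate progenitors and 60.8 and 108 CPM in neuroblasts. Altogether 2 of 16 measured regulators in radial glia, 2 of 15 in intermediate progenitors and 2 of 14 in neuroblasts were lower, against 8.51%, 8.17% and 5.93% of all measured genes. In neuroblasts 1 regulator was higher, against 7.18% of all measured genes. That one was Sox9, a glial factor, at 49.5 CPM in Setdb1_cKO and 14.98 CPM in control. Of 8 dentate granule fate genes, 3 were lower in radial glia, 1 in intermediate progenitors and 1 in neuroblasts, in both of the last classes Emx2. Those in radial glia included Prox1 at 94.4 and 164 CPM, and Bcl11b at only 3.83 and 9.49 CPM. The part of free RNA in these values was not tested. Of 6 other neuronal bHLH genes, Nhlh2 was higher and 1 gene was lower among 4 measured in intermediate progenitors, and Neurod6 was lower in neuroblasts, at 53.1 and 97.4 CPM, while none was 1.5-fold apart in radial glia among 3 measured. Of 4 other T-box genes 0 were measured in any of these classes.

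Over the same 27 sums the genes most like the remaining members were Lsm8 and Ezh2 for Neurog2 (r = 0.904 and 0.873), Igfbpl1 and Sox11 for Neurod1 (r = 0.974 and 0.972) and for Scrt2 (r = 0.938 and 0.913), and Neurod1 and Prox1 for Neurod2 (r = 0.958 and 0.928). For Neurod4 they were Eomes and Tac2 (r = 0.889 and 0.880), and for Tbr1 Rtn4r and Gse1 (r = 0.883 and 0.882). Neurog1 stayed under 20 CPM and its best match reached only r = 0.602, with Hirip3.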

How the data were processed

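The deposited files hold raw UMI counts per gene and barcode of 2 libraries, whole numbers that the authors had not normalised, per the file values. Cell Ranger 7.1.0, Seurat and the build mm10 are named in the submitters' processing notes. No annotation release for the counting was given in those notes. Barcodes under 1000 UMIs, under 500 genes or over 10% mitochondrial UMIs were left out, and doublets called with Scrublet (scanpy 1.11.5, expected rate 8%) were removed: 672 Setdb1_cKO and 758 control barcodes were marked. The libraries shared 68 barcodes, 38 of them among kept cells.

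Cells were clustered together (2000 variable genes, 30 principal components, Leiden resolution 1.0 with leidenalg 0.10.2, on a neighbour graph from scikit-learn 1.9.0 and igraph 0.11.9). A first joint clustering gave 8 of 20 large clusters with over 90% of cells from 1 library. After seeing it, 123 genes 2-fold apart between the libraries and 334 genes that follow Top2a or Pcna were left out, and genes were scaled within each library, which left 0 of 20 such clusters. Of the kept cells, 2639 and 2632 had close scores for their best types. The thresholds for naming clusters from markers of 18 cell types were also set after a first clustering. The members and lists were chosen with earlier results of these data known.

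UMIs were summed per class and library and scaled to CPM of the class total. Genes with 30 or more UMIs in the sum of both libraries were taken as measured, and called apart at 1.5-fold, with a pseudocount of 0.5 UMI for the call. For ratios, 95% intervals came from the exact conditional Poisson method, and for shares from the Clopper-Pearson method. Cells were thinned to 2000 UMIs without replacement for shares. The steps were tested on simulated data. Members are named in every class, list genes when at least 1.5-fold apart with an interval that excludes 1 (at most 4 per list and class, by level), and 2 genes per member by likeness. Alternatives changed filters, clustering, scaling, thinning, free RNA and the UMI minimum.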

Additional observations from a re-analysis of the deposited data

Results flagged for a closer look

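The Scrt2 ratio lay on opposite sides of 1 at different stages, a difference between stages that was not tested. Its ratio of Setdb1_cKO to control was 2.10 in the Gpd1 cluster, on 33 and 17 UMIs, and 0.660 in Calb2 neuroblasts, 0.623 in Cpne9 neuroblasts, 0.540 in Bcl11b neuroblasts and 0.616 in Syt4 neurons. In the Gpd1 cluster the control level of 5.13 CPM lay under the control free RNA level of 6.76 CPM, so the control value there is background.

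Barcodes that the filters left out, read without cell classes, also had a higher Nhlh1 level in Setdb1_cKO. They held 274 Nhlh1 UMIs in Setdb1_cKO and 175 in control, at 23.6 and 17.1 CPM, a ratio of 1.38 (1.14 to 1.68). That ratio is under 1.5-fold and also carries the mix of cells. In the same barcodes 3 of 8 measured members were at least 1.5-fold lower, against 6.39% of 14051 measured genes.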

How the results depend on the processing

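The number of members at least 1.5-fold apart in intermediate progenitors was 4 and lay between 3 and 5 under all alternatives, and that in neuroblasts was 3 and lay between 2 and 4. In radial glia, where the main count was 3, it was 1 with looser cell filters, 1 with doublets kept and 0 after free RNA was subtracted. Of 382 ratios of single members under alternatives, 287 lay within the counting interval of the main value, 93 outside it, and 2 changed sign from a value at least 1.5-fold apart: Neurod1 in radial glia had a log2 ratio of -0.68, against 0.59 with stricter cell filters and 0.00 at resolution 1.5. The log2 ratio in intermediate progenitors ranged between -1.21 and -0.77 for Eomes, between -0.86 and -0.35 for Neurog2 and between 0.77 and 1.08 for Nhlh1, each with its sign kept in 16 of 16 alternatives. Over all kept cells, which clustering cannot change, Neurog1 had between 0 and 2 UMIs in Setdb1_cKO and between 47 and 61 in control under other cell filters. In intermediate progenitors it had 0 or 1 in Setdb1_cKO and between 41 and 52 in control under other filters and clusterings. The alternatives with libraries clustered together without centring and with cell cycle genes in clustering were added after seeing the data. No paired analysis was possible because each genotype has 1 library, and for the same reason no replicate could be left out. Depth limits Neurog1, and the 85 control granule neurons limit the values of that class.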
